A study of Mus musculus with 42 samples.

Results

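Transmembrane mucins in mouse colon were followed through 6 genes, Muc1, Muc3, Muc4, Muc13, Muc16 and Muc20, chosen by gene symbol. The deposited tables listed 20462 genes in all, and all 6 mucin genes were found in each of the 9 tables. The tables held bulk RNA-Seq of 42 libraries from mice on a C57BL/6J background, at least 8 weeks old, in 14 groups. Untreated crypts of the proximal and distal colon, distal crypts after colitis, and whole tumors of the distal colon were sequenced.

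The gene manipulated was Mtg16 (Cbfa2t3), a transcriptional corepressor. Mtg16-/- mice lack both alleles, and T/T mice are homozygous for Mtg16 P209T, a proline-to-threonine change that weakens binding of MTG16 to the E proteins E2A and HEB. Each line was a colony of its own with its own WT littermates, and both changes are germline, so that every cell of the mouse carried them. Untreated proximal crypts came from 2 Mtg16-/- mice with 2 WT and from 2 T/T mice with 2 WT. Untreated distal crypts came from 4 Mtg16-/- mice with 4 WT and from 4 T/T mice with 3 WT. No source used here says whether proximal and distal crypts came from the same mice, and the segment comparisons treat the libraries as independent. Crypts were released by chelation, the proximal ones from the 5 cm of colon that adjoin the cecum and the distal ones from the last 5 cm before the anus. After 2% dextran sulfate sodium (DSS), an agent that injures the colon epithelium, given for 5 days with 4 days of recovery, distal crypts came from 4 Mtg16-/- mice with 3 WT and from 3 T/T mice with 3 WT. Tumors came from 3 T/T and 3 WT mice given the carcinogen azoxymethane (AOM, 10 mg/kg) and 3 cycles of 3% DSS, and were taken whole with their stroma.

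Transmembrane mucins are anchored in the apical membrane of epithelial cells and form the glycocalyx, a layer of O-glycans beneath the secreted mucus gel. Most carry a long glycosylated outer domain that can be shed and a short tail inside the cell that can take part in signaling. MUC1 is the best studied of the tail-signaling mucins. Mouse Muc3 and Muc13 encode abundant mucins of the intestinal brush border, and MUC4 can pair with the receptor ERBB2. MUC16 carries the CA125 epitope and is known from mesothelium and wet epithelia, and MUC20 is known for binding the receptor MET. Mucin genes other than those tested below were not analysed here.

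In GRCm38 (GENCODE vM21), Muc1 (ENSMUSG00000042784.9) lies at chr3:89229057-89233381 on the plus strand, and Muc16 (ENSMUSG00000109564.1) at chr9:18495455-18674530 on the minus strand. Muc3 (ENSMUSG00000037390.12) lies at chr5:137134922-137149322 on the minus strand. The other 3 share chromosome 16: Muc4 (ENSMUSG00000079620.13) at chr16:32735886-32782391, plus strand, Muc20 (ENSMUSG00000035638.14) at chr16:32777419-32797435, minus strand, and Muc13 (ENSMUSG00000022824.12) at chr16:33794037-33819934, plus strand. Muc4 and Muc20 run toward each other and overlap, with 627 shared exonic bases, or 15.6% of the exonic bases of Muc20 and 5.33% of those of Muc4. No source used here states that reads were assigned by strand, so Muc20, the far lower of the pair, is uncertain where it moves with Muc4.

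E proteins bind E boxes, whose letters are CANNTG, so the 250 bases before the RefSeq start site of each gene were searched for them (build GRCm38.p6). The motif reads the same on both strands. Each of the 6 genes held at least 1 match, as did 66.2% of all 32851 windows of that length. Muc1 held 3, at 234 to 229, 193 to 188 and 70 to 65 bases before the start, a number reached by 12.2% of windows. Muc16 held 2, at 116 to 111 and 109 to 104 bases before the start. Muc1 also held TATAAA at 31 to 26 bases before the start, and Muc4 at 36 to 31. This motif, in either orientation and anywhere in the window, was found in 12.4% of windows. The Muc1 and Muc16 windows are shown because these genes differed between T/T and WT proximal crypts. They are given 5′ to 3′ on the strand of the gene, from chr3:89228806-89229055 and chr9:18674604-18674853, with the CANNTG matches in capitals. A match is a string of letters and was not tested for binding.
Muc1: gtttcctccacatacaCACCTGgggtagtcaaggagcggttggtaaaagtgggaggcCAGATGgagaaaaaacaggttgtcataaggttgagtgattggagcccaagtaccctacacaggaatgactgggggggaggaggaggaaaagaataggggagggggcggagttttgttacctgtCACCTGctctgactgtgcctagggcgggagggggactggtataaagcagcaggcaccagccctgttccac
Muc16: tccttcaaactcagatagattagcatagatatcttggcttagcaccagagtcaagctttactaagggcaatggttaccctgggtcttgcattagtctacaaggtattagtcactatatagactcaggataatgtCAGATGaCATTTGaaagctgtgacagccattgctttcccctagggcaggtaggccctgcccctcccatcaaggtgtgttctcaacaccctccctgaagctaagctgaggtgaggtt

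Before the results, 1 library went against its label. In WT crypts 27 genes other than Muc16 had at least 100 normalized counts in every proximal library and at most 10 in every distal library, a rule chosen after the data were seen. The library labelled Mtg16-/- distal baseline replicate 2 had more than 10 counts of 27 of these 27 genes, with a summed 478.1 RPM (reads per 1e+06 reads of the library). Proximal libraries held 435.2 to 561.9, and the other untreated distal libraries 0.894 to 4.41. By the reverse rule, 3 of 24 distal genes exceeded 10 counts in it, with a summed 2.413 RPM against 280.0 to 449.1 in the other untreated distal libraries. The tests of Muc1 and the differences between effects that rest on this library are given with and without it.

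The 38 libraries whose whole reads could be recovered held 32231389 to 74661922 reads assigned to genes. In proximal crypts the targeted gene Cbfa2t3 measured 631 to 1057 normalized counts for Mtg16-/- libraries and 1634 to 3221 for WT libraries. It had 427 to 595 against 1845 to 2519 after DSS and 424 to 1095 against 1027 to 1809 in untreated distal crypts, where the library labelled Mtg16-/- replicate 2 was the highest of its group. In T/T mice the transcript is still made, so its level does not check the label. Epithelial markers (Epcam, Cdh1, Krt8, Krt18 and Vil1, all 5 listed) summed to 9726 to 16840 RPM in crypts and 6894 to 10500 in tumors. Fibroblast markers (5 of 5 listed) reached at most 78.3 in crypts and 2616 to 3574 in tumors.

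Muc13 and Muc3 supplied nearly all of the transmembrane mucin RNA. The 6 genes together took 0.266% to 0.838% of the reads of a library, and Muc13 and Muc3 made up 89.3% to 97.6% of that share. Per kilobase of the longest annotated transcript, group means of Muc13 ran from 848 to 1865 RPKM (RPM per kilobase) and those of Muc3 from 185 to 1233. Muc4 followed with 11.1 to 46.1 RPKM, and Muc1 with 1.05 to 36.3. Muc20 ranged from 0.0377 to 1.32 RPKM and Muc16 from 0.00045 to 0.872. The Muc3 model in GENCODE is 1853 bases long and the RefSeq start of the gene lies 16724 bases upstream of it, so its per-length level depends on the model used.

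Across the 14 groups Muc1 had the widest spread of levels apart from Muc16 and Muc20. Its mean was lowest in T/T proximal crypts, 2.36 RPM, and highest in WT distal crypts of the T/T colony after DSS, 81.3, a ratio of 34.4. The full ascending order of means was T/T proximal 2.36, Mtg16-/- proximal 3.63, Mtg16-/- distal 12.7, Mtg16-/- DSS 14.0, WT proximal of the Mtg16-/- colony 18.4, T/T distal 19.7, T/T DSS 19.9, and WT proximal of the T/T colony 28.1. Above these came WT distal of the Mtg16-/- and T/T colonies with 37.3 and 40.6, T/T tumors 48.4, WT DSS of the Mtg16-/- colony 55.6, WT tumors 59.5 and WT DSS of the T/T colony. Of the 13 pairs of neighbours in this order, 1 did not overlap, T/T DSS and WT proximal of the T/T colony. Without the library labelled replicate 2 the Mtg16-/- distal mean was 15.9 RPM, above that of Mtg16-/- DSS. The Mtg16-/- proximal libraries (2.84 to 4.41) then overlapped neither of these groups, which began at 6.44 and 8.36. The 6 untreated or DSS-treated mutant groups were thus among the lowest 7. Muc13 varied least, with means of 2516 to 5538 RPM and a ratio of 2.20, and none of its 13 neighbour pairs stood apart. Muc3 ranged from 343 in WT tumors to 2285 in WT distal crypts of the Mtg16-/- colony, and Muc4 from 125 to 520. These levels cross separately deposited tables and carry no test.

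The segment comparison asked how WT proximal and distal crypts differ at baseline, with 4 proximal and 7 distal libraries. Muc16 was almost confined to the proximal libraries, Muc4 was lower and Muc13 higher in distal crypts. Of the 6 genes, 3 passed the test (limma on log2(normalized count + 1), adjusted p under 0.05), where 42.1% of all 13841 genes tested passed. Muc16 had 663, 440.1, 433 and 369 normalized counts in the proximal libraries and a median of 3.38 in the distal ones, from 0 to 6.93. The groups lay 143-fold apart on their means, 476 ± 129 (SD, n = 4) against 3.33 ± 2.33 (SD, n = 7). Its log2 fold change, distal over proximal, was -7.00 (SE 0.48, limma adjusted p = 5.72e-08), and the exact two-sided permutation test gave p = 0.00303, the smallest that 7 against 4 libraries allow. Muc16 entered this test only through the proximal libraries, where it is high, so its call adds nothing to the count of the family, of which 2 of the other 5 genes passed. Without the filter on low counts its limma adjusted p was 4.02e-08.

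**Figure D1:**
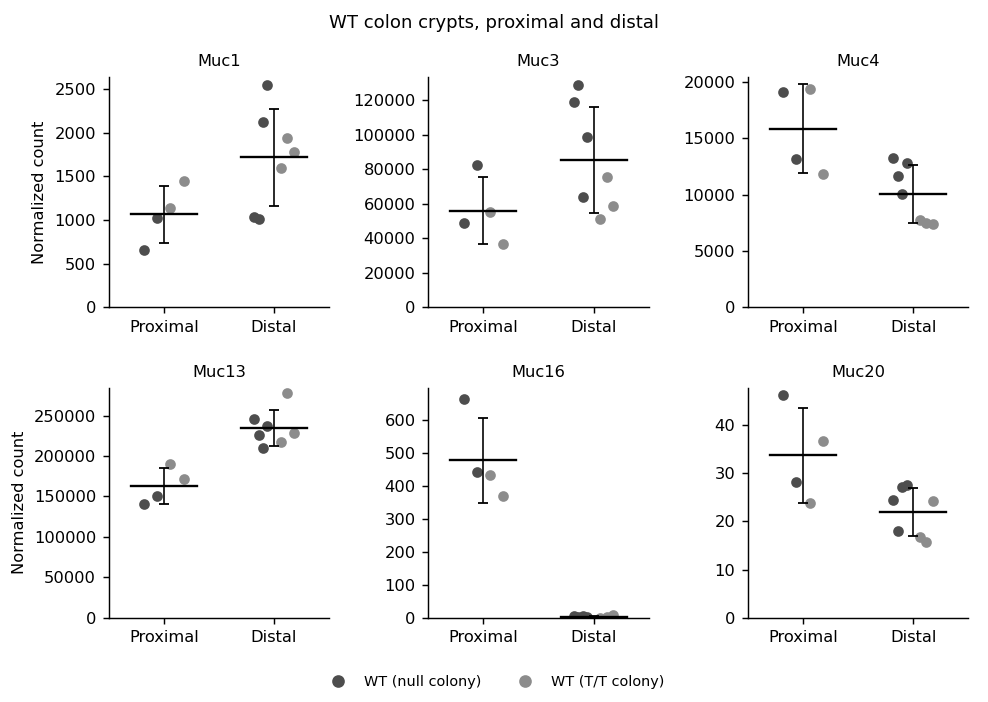
Normalized counts (log axis) of the 6 transmembrane mucin genes in untreated WT crypts, with 1 point per library, 4 proximal and 7 distal. Muc16 separates the segments, with 369 to 663 counts in proximal and at most 6.93 in distal libraries, whereas Muc3, Muc1, Muc4 and Muc20 overlap.

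Muc13 had 140341 to 189638 normalized counts in proximal libraries and 209609 to 277547 in distal ones, with no overlap. The distal mean was 1.44-fold higher (log2 fold change 0.53, SE 0.12, limma adjusted p = 0.00226, exact permutation p = 0.00303). Muc4 had 19091, 13132, 19384 and 11809 normalized counts in proximal libraries and 7369 to 13242, median 10022, in distal ones. The Muc4 ranges overlapped, and its log2 fold change was -0.66 (SE 0.20, limma adjusted p = 0.0147). Thus 1 gene lay above and 1, Muc16, below without overlap, as did 14.1% and 15.9% of all genes tested. Muc1 had 655 to 1447 counts in proximal and 1016 to 2543 in distal libraries, a log2 fold change of 0.67 (SE 0.26) that missed the threshold (limma adjusted p = 0.0529) and passed it in edgeR (adjusted p = 0.0447) and DESeq2 (adjusted p = 0.0139). Muc3 (log2 fold change 0.59, limma adjusted p = 0.0974) and Muc20 (log2 fold change -0.58, limma adjusted p = 0.079) did not pass.

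Markers of other cells moved with the segment, and fewer cells of a type and less RNA per cell cannot be told apart in such bulk samples. Mesothelial markers (5 of 5 listed) summed to 2.85 to 6.28 RPM in WT proximal and 0.569 to 1.23 in WT distal libraries, and Upk1b, the 1 of them tested, was lower in distal crypts by -2.36 on the log2 scale. Wt1, a defining mesothelial factor, was at 0 in each untreated distal WT library of the T/T colony. T cell markers (3 of 4 listed) summed to 20.2 to 33.5 RPM in proximal and 2.99 to 12.3 in distal libraries, and 3 of 3 were lower in distal crypts. Surface colonocyte markers (5 of 5 listed) summed to 2405 to 3098 RPM in proximal and 2786 to 4218 in distal libraries, with 4 of 5 higher and Krt20 lower. Markers of ileal epithelium and Paneth cells summed to 102.5 to 204.9 RPM in proximal and 14.07 to 81.4 in distal libraries, with Slc10a2 lower. Myeloid markers (5 of 5 listed) summed to 43.2 to 63.8 RPM in proximal and 11.8 to 26.5 in distal libraries. Of these, Itgam and Ptprc were lower and Csf1r and S100a8 higher in distal crypts. The part of these markers in the segment differences was not tested.

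Labels open with a number, 4149 or 5582 for the proximal and 4149 or 5094 for the distal libraries of this comparison. Within 4149 alone, with 2 proximal and 2 distal libraries, Muc16 passed, Muc1 had a log2 fold change of 1.50 (limma adjusted p = 0.0204), Muc13 0.61 (limma adjusted p = 0.305) and Muc4 did not pass (limma adjusted p = 0.263). With this number as a covariate Muc4 also missed the threshold (log2 fold change -0.48, limma adjusted p = 0.343), and without proximal replicate 1 of either colony its limma adjusted p was 0.0543 or 0.0588.

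The main comparisons set Mtg16-/- and T/T crypts against their own WT littermates. Muc1 had the lower mean in the mutant in all 6 of them, by 2.11-fold to 11.8-fold, and passed the test in 2, T/T proximal crypts and Mtg16-/- distal crypts after DSS. In proximal crypts of T/T mice Muc1 had 64.5 and 147 normalized counts, against 1101 and 1392 in WT. The groups were far apart, 106 ± 58.2 against 1246 ± 206 (SD, n = 2 each), an 11.8-fold lower mean. On the log2 scale the difference was -3.65 (SE 0.37, limma adjusted p = 0.038). Muc1 and Muc16 were the 2 of 6 genes that passed, against 0.232% of 13767 genes tested. The exact permutation test of 2 against 2 libraries cannot go below p = 0.333. Neither gene passed without WT replicate 1 or WT replicate 2 (limma adjusted p of Muc1 0.335 and 0.739), or without the filter on low counts (Muc1 0.0827, Muc16 0.0772).

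In proximal crypts of Mtg16-/- mice Muc1 had 214 and 141 normalized counts against 707 and 1095 in WT, 5.08-fold lower on the means (177 ± 51.5 against 901 ± 274, SD, n = 2 each). This log2 fold change of -2.34 (SE 0.30) missed the threshold (limma adjusted p = 0.102). None of the 6 genes passed here in limma, where 0.0645% of 13944 genes passed, and edgeR and DESeq2 could not be run. An unadjusted limma p under 0.05 was found for Muc1, Muc20 and Muc4, 3 of the 6, and for 5.96% of all genes. Muc1 passed without WT replicate 1 (limma adjusted p = 0.0426).

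**Figure D2:**
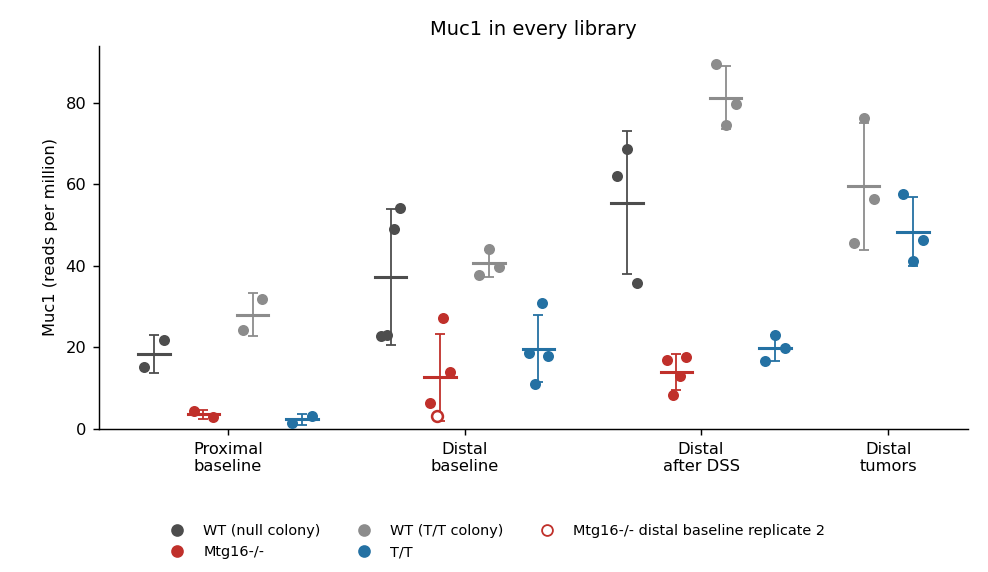
Normalized counts of Muc1 (each panel on the scale of its own table) for mutant and WT libraries, 1 point per library with bars for mean ± SD. The mutant libraries lie below the WT libraries in 5 of the 6 crypt comparisons, overlap them in untreated Mtg16-/- distal crypts, where the open circle is the library labelled replicate 2, and overlap them in tumors.

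In untreated distal crypts of T/T mice Muc1 had 709.6, 439, 1236 and 744 normalized counts, and WT had 1499, 1811 and 1643. No T/T library reached the lowest WT library, and the mean was 2.11-fold lower (782 ± 332, n = 4, against 1651 ± 156, n = 3, SD). That is a log2 fold change of -1.17 (SE 0.31, 95% interval -1.89 to -0.44), with an unadjusted limma p = 0.00633, an adjusted p = 0.863 and an exact permutation p = 0.0571. None of the 5 genes tested passed in limma, edgeR or DESeq2, where 0.0369% of 13535 genes did in limma, and Muc1 was the 1 with an unadjusted limma p under 0.05, as were 4.65% of all genes. It was the 1 gene of the family below WT without overlap, like 3.31% of all genes.

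In untreated distal crypts of Mtg16-/- mice Muc1 had 294, 149.7, 1194 and 643 normalized counts against 1061, 1043, 2187 and 2601 in WT. The ranges overlapped over all 8 libraries (570.3 ± 464 against 1723 ± 793, SD, n = 4 each), and also without the library labelled replicate 2 (710.5 ± 453, SD, n = 3, exact permutation p = 0.143). Replicates 1 and 2 of both groups carry the label number 5094 and replicates 3 and 4 carry 4149, and within each number both mutant libraries, the one labelled replicate 2 included, were below both WT libraries. The log2 fold change was -1.88 (SE 0.62, limma adjusted p = 0.61, exact permutation p = 0.0857). It was -2.32 within 5094 (limma adjusted p = 0.791), or -1.83 with the 1 mutant library left there when that labelled replicate 2 is omitted, and -1.44 within 4149 (limma adjusted p = 0.692). Without the library labelled replicate 2 it was -1.38 (SE 0.49, limma adjusted p = 0.519). Without that library and with the label number as a covariate, an analysis added after the data were seen, it was -1.60 (limma adjusted p = 0.0283). None of the 6 genes passed with all libraries in limma, edgeR or DESeq2, where 0.239% of 13831 genes passed in limma. Muc1 was the 1 gene of the 6 with an unadjusted limma p under 0.05, found for 4.63% of all genes.

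After DSS Muc1 was below WT in every mutant library of both lines. Mtg16-/- libraries had 971, 442, 724 and 1019.8 normalized counts, and WT libraries 3555, 3834 and 1936. Each mutant library was below each WT library, and the mean was 3.94-fold lower (789 ± 265, n = 4, against 3108 ± 1025, n = 3, SD). The log2 fold change was -1.99 (SE 0.33, limma adjusted p = 0.0348, exact permutation p = 0.0286, the smallest that 4 against 3 libraries allow). Muc1 was the 1 of 5 genes tested that passed, where 0.629% of 14476 genes did. Same-numbered libraries deviated together here, and with the replicate number as a block the log2 fold change was -2.13 (limma adjusted p = 0.00232) while the genes called rose from 91 to 1271. The fourth Mtg16-/- library has no WT partner and adds nothing to the blocked value. The unblocked call did not hold without WT replicate 1 (limma adjusted p = 0.0737), WT replicate 2 (0.12), Mtg16-/- replicate 1 (0.0708) or Mtg16-/- replicate 3 (0.126).

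T/T distal crypts after DSS had 786, 1136 and 1025 normalized counts of Muc1, and WT had 4722, 3974 and 4000. The groups were well separated, 982 ± 179 against 4232 ± 425 (SD, n = 3 each), a 4.31-fold lower mean. The log2 fold change of -2.12 (SE 0.20) just missed the threshold in limma (unadjusted p = 2.08e-05, adjusted p = 0.0567) and passed in DESeq2 (-2.10, adjusted p = 6.39e-14). The exact permutation test gave p = 0.1, the smallest that 3 against 3 libraries allow. None of the 13648 genes tested, 0%, passed in limma or in edgeR, 334 did in DESeq2, and 1197 or 8.77% had an unadjusted limma p under 0.05. Among the 5 mucin genes tested, Muc1 alone had an unadjusted p under 0.05 and alone did not overlap WT, lying below it like 8.02% of all genes.

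Goblet cell marker sums stood lower in the mutant in some of these comparisons and higher in others, and Tff3 in proximal crypts was the 1 marker of the list that passed. Their summed level (4 of 5 markers listed, Clca1, Fcgbp, Zg16 and Tff3, none at 0) was 12630 to 13720 RPM in T/T and 20780 to 23140 in WT crypts after DSS, and 10310 to 15590 in Mtg16-/- against 13530 to 16240 in WT. In proximal crypts this sum was higher in the mutants, 9570 to 11450 against 6039 to 6701 for Mtg16-/- and 6996 to 7638 against 5437 to 6066 for T/T. The genes within it did not move together there. For Mtg16-/- the log2 fold changes were 1.65 for Tff3 and 1.31 for Fcgbp but -0.48 for Clca1 and -0.52 for Zg16, and for T/T they were 0.92, 0.78, -0.86 and -0.32. The median over 8 goblet cell products and factors was -0.50 for Mtg16-/- and -0.30 for T/T proximal crypts, with 5 and 6 of the 8 below 0, beside 0.00 and -0.01 for all genes. In untreated distal crypts the sum was 14190 to 16420 in T/T against 10830 to 13380 in WT, and 10440 to 17690 in Mtg16-/- against 14010 to 19230 in WT. The value of 10440 was that of Mtg16-/- replicate 3, and the library labelled replicate 2 had 16640.

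Markers of immune, mesothelial, squamous, fibroblast, smooth muscle and ileal cells are given as summed levels. Between genotypes the myeloid Lyz2 passed as higher and the ileal Fabp6 as lower, both in Mtg16-/- crypts after DSS. No other of these genes passed. Myeloid markers (5 of 5 listed) were 80.2 to 258 RPM in Mtg16-/- and 21.4 to 53.8 in WT after DSS, and 31.4 to 38.2 in T/T against 10.7 to 22.9 in WT. B and plasma cell markers (4 of 4 listed) after DSS were 13.1 to 15.1 in T/T against 4.10 to 7.59 in WT, and 9.45 to 29.97 in Mtg16-/- against 5.93 to 12.2 in WT. In proximal crypts they were 42.1 to 48.0 in Mtg16-/- against 10.7 to 27.9 in WT, and 12.5 to 26.6 in T/T against 19.0 to 38.1 in WT. Smooth muscle markers (4 of 4 listed) were 0.948 and 54.1 there in Mtg16-/- against 1.23 and 1.45 in WT. For T/T they were 0.742 and 22.95 against 0.800 and 0.871. Markers of ileal epithelium and Paneth cells were 143.8 and 175.3 in T/T against 152.6 and 189.3 in WT proximal crypts. Their median log2 fold change was -3.18 there and 0.37 in Mtg16-/- proximal crypts. After DSS mesothelial markers (5 of 5 listed) were 5.89 to 9.25 in Mtg16-/- against 2.69 to 4.75 in WT, and 2.87 to 5.17 in T/T against 1.68 to 2.86. In proximal crypts these mesothelial sums were 2.83 to 4.41 in T/T against 2.85 to 3.135 in WT. For Mtg16-/- they were 3.31 to 4.205 against 4.08 to 6.28 in WT. Squamous epithelium markers (6 of 6 listed) were 321 to 839 in Mtg16-/- against 255.5 to 394.5 in WT after DSS, and fibroblast markers (5 of 5 listed) 8.48 to 78.3 against 7.08 to 9.01. Surface colonocyte markers (5 of 5 listed) were 1433 to 2655 in T/T and 2570 to 3643 in WT crypts after DSS, and epithelial markers (5 of 5 listed) 10710 to 14060 against 12800 to 16840. None of these 10 genes passed there, with log2 fold changes of -1.35 for Aqp8 and -1.08 for Car4 (limma adjusted p = 0.159 and 0.187). The part of these markers in the Muc1 and Muc16 differences was not tested.

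Muc16 was the other gene to pass in T/T proximal crypts, and there it was higher. It had 979.7 and 997 normalized counts in T/T and 421 and 355 in WT, 2.55-fold apart with close replicates. The log2 fold change was 1.35 (SE 0.13, limma adjusted p = 0.038), and leaving out WT replicate 1 or 2 or T/T replicate 2 ended the call (limma adjusted p = 0.276, 0.673 and 0.111). In Mtg16-/- proximal crypts Muc16 had 461 and 510.0 counts, within the 715 and 469 of WT (log2 fold change -0.26). Untreated Mtg16-/- distal crypts had 12.7, 468, 0.947 and 8.99 counts against 3.12 to 5.18 in WT. The value of 468 was that of the library labelled replicate 2, and Muc16 passed the filter on low counts only through it. In the 4 remaining tables of distal crypts alone Muc16 was at most 12.9 counts and was not tested.

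**Figure D3:**
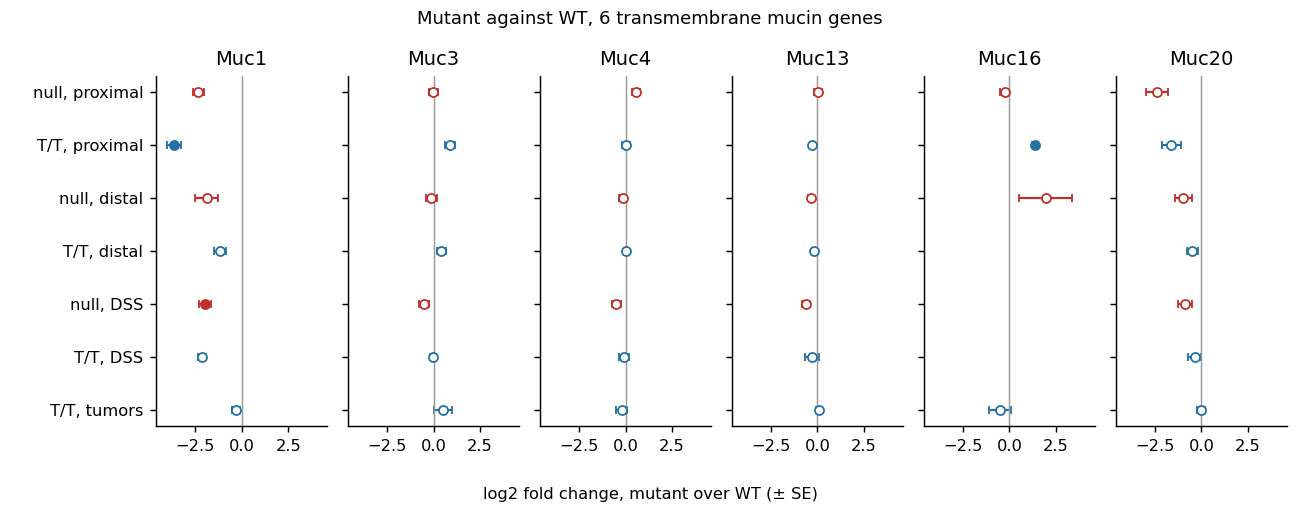
Log2 fold changes, mutant over WT, of the 6 genes in the 7 genotype comparisons, with limma 95% intervals. Filled points passed at an adjusted p under 0.05, namely Muc1 and Muc16 in T/T proximal crypts and Muc1 in Mtg16-/- crypts after DSS, and Muc16 is blank where it was not tested.

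Muc20 was lower in the mutant proximal crypts without passing the test. The Mtg16-/- libraries held 5.59 and 7.98 of its normalized counts, the WT libraries 49.8 and 29.98 (log2 fold change -2.37, SE 0.58, limma adjusted p = 0.464). In T/T proximal crypts it had 8.46 and 9.05 against 23.1 and 35.3 (log2 fold change -1.60, SE 0.50, limma adjusted p = 0.313). In both segments and lines the Muc20 counts were low, at most 49.8 without DSS. Muc4, whose exons Muc20 overlaps, had log2 fold changes of 0.57 and 0.04 in the same proximal comparisons.

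Muc13 had a lower mean after DSS in Mtg16-/- than in WT crypts. The Mtg16-/- libraries had 133277, 188259, 210137 and 186313 normalized counts against 232328, 325113 and 261339 in WT. The groups did not overlap and the mean was 1.52-fold lower, with a log2 fold change of -0.61 (SE 0.23) that did not pass (limma adjusted p = 0.313, exact permutation p = 0.0286). Muc1 and Muc13 were thus the 2 genes below WT without overlap in that table, like 5.26% of all genes. In T/T crypts after DSS Muc13 ranged from 95704 to 207731 against 122213 to 261662, an overlap. Muc3 and Muc4 did not pass in any genotype comparison. The largest of their log2 fold changes was that of Muc3 in T/T proximal crypts, 0.87 (limma adjusted p = 0.291), where T/T had 63937 and 98312 counts and WT 53668 and 35202. Without overlap, 1 gene was above and 2 below WT in Mtg16-/- proximal crypts, and 2 were above and 3 below in T/T proximal crypts. The shares of all genes were 17.5% above and 18.1% below in the first and 22.6% and 22.9% in the second.

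Whether the genotype effects themselves differed between lines, segments and treatments was tested on the differences of the log2 fold changes. None of the genes passed in any of the 6 differences. Between the lines, 0% of all genes passed in untreated distal crypts and 0.0148% after DSS, with an unadjusted p under 0.05 for 2.34% and 4.62%. Between proximal and distal crypts 0.0372% passed for Mtg16-/- and 0.0229% for T/T, with an unadjusted p under 0.05 for 3.85% and 4.45%. Between DSS and baseline 0.00738% passed for Mtg16-/- and 0.234% for T/T, with an unadjusted p under 0.05 for 3.37% and 10.8%. These shares are small numbers of genes that single libraries moved. Without the library labelled Mtg16-/- distal baseline replicate 2, the genes called went from 0 to 2 between the lines in untreated crypts, from 5 to 9 for Mtg16-/- between segments and from 1 to 50 for Mtg16-/- between DSS and baseline. For T/T between DSS and baseline 31 genes were called, 4 without T/T DSS replicate 1 or WT DSS replicate 2 and 93 without T/T DSS replicate 3. For Muc1 the Mtg16-/- effect minus the T/T effect was -0.71 in untreated distal crypts (95% interval -2.18 to 0.75), or -0.21 without the library labelled replicate 2, and 0.13 after DSS (-0.69 to 0.95). The proximal minus the distal T/T effect on Muc1 was -2.48 on the log2 scale (SE 0.48, 95% interval -3.52 to -1.45), with an unadjusted p = 0.000154 and an adjusted p = 0.112 from the limma estimates. Over the 11 omissions of single libraries it ran from -3.07 to -1.90, with adjusted p from 0.00333 to 0.759. It passed in 1 of them, without T/T proximal replicate 2 (-3.07), and was -1.90 without T/T proximal replicate 1 (adjusted p = 0.0983). For Mtg16-/- the proximal effect minus the distal effect was -0.45, and -0.96 without the library labelled replicate 2. The effect after DSS minus that at baseline was -0.95 for T/T (SE 0.37, adjusted p = 0.382 from the limma estimates) and -0.11 for Mtg16-/- (95% interval -1.58 to 1.37), or -0.61 without that library. Apart from Muc1 in these T/T differences, 1 gene had an unadjusted p under 0.05, Muc4 in the proximal against the distal Mtg16-/- effect (0.72, SE 0.28, adjusted p = 0.999). Without the library labelled replicate 2 that value was 0.88 (adjusted p = 0.6). Muc20 in the same difference was then -1.76 (SE 0.67), with an unadjusted p under 0.05 and an adjusted p = 0.9996 from the limma estimates.

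DSS in WT distal crypts was compared with untreated WT distal crypts of the same colony, 3 libraries each, which also serve the T/T comparisons. In this colony Muc1, Muc4, Muc3 and Muc20 rose and Muc13 did not pass, so that 4 of 5 genes tested were called. The rise of Muc20 is uncertain, since it moved with Muc4, whose exons it overlaps. Of all 13566 genes 35.6% were called, 14% as higher, and Muc16 was at most 7.38 counts and was not tested. Muc1 went from 1742, 2078 and 1898 normalized counts to 4344, 3686 and 3789, 2.07-fold on the means (1906 ± 169 and 3940 ± 354, SD). Its log2 fold change was 1.05 (SE 0.13, limma adjusted p = 0.00803). Muc4 went from 8468, 8031 and 7852 to 19132, 21019 and 11765 counts, with 1 DSS library well below the other two. Its mean was 2.13-fold higher (log2 fold change 1.05, SE 0.22, limma adjusted p = 0.0179). With the transcript length trend removed the Muc4 log2 fold change was 1.96.

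**Figure D4:**
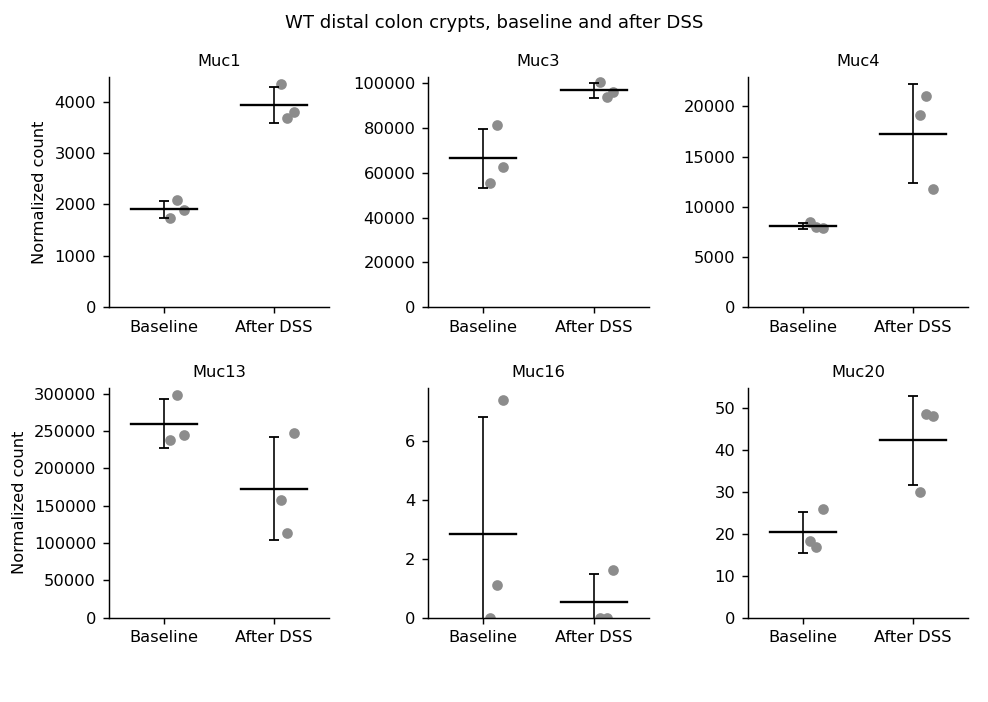
Normalized counts (log axis) of the 6 genes in WT distal crypts of the T/T colony, untreated and after DSS, 1 point per library, 3 per group. Muc1, Muc3, Muc4 and Muc20 lie higher in every DSS library than in every untreated one, for Muc1 3686 to 4344 against 1742 to 2078, and Muc13 overlaps.

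Muc3 went from 55667, 81269 and 62683 normalized counts to 100384, 93778 and 96305 (log2 fold change 0.56, SE 0.15, limma adjusted p = 0.0341). Muc20 went from 18.2, 16.9 and 25.8 to 29.9, 48.6 and 48.1 (log2 fold change 1.01, SE 0.32, limma adjusted p = 0.0487). Muc13 went from 237321, 298103 and 244050 to 157553, 113345 and 247822, with an overlap (log2 fold change -0.65, SE 0.28, limma adjusted p = 0.107). The 4 genes lay above baseline in each DSS library, like 26% of all genes, and the exact permutation p of each was 0.1, the smallest possible. All DSS libraries carry the label number 5740 and all untreated ones 5094, so the treatment and that number cannot be told apart. Leaving out any 1 of 5 of the 6 libraries left 0 or 1 of these calls (WT DSS replicates 1 and 2 and the 3 untreated replicates), and that 1 was Muc1. Without DSS replicate 3, Muc1, Muc3 and Muc4 passed, Muc20 did not (limma adjusted p = 0.0594), and Muc13 passed as lower (log2 fold change -0.95, limma adjusted p = 0.00145). The Muc20 call was lost in each of these 6 omissions and also missed the threshold without the filter (limma adjusted p = 0.0638) and with a pseudocount of 0.1 (0.0514).

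WT crypts of the Mtg16-/- colony, whose untreated and DSS libraries stand in separate tables, are given as levels only, since their change was not tested. Muc3 had 1473 to 2917 RPM untreated and 1300 to 1882 after DSS (means of 2285 and 1639), against a rise from 1418 to 1998 in the T/T colony. Muc4 had 231 to 293 RPM untreated and 240.2 to 317 after DSS (means of 265 and 279). Muc1 had means of 37.3 and 55.6 RPM with overlapping ranges, and Muc20 0.539 and 0.843, also overlapping.

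In WT crypts of the T/T colony goblet cell markers summed to 10830 to 13380 RPM untreated and 20780 to 23140 after DSS. Mesothelial markers summed to 0.569 to 1.16 RPM untreated and 1.68 to 2.86 after DSS, and fibroblast markers to 0.947 to 2.35 untreated and 2.97 to 7.33 after DSS. The part of these in the DSS differences was not tested.

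Tumors of T/T and WT mice overlapped in all 6 genes. Muc1 had 2798, 2001 and 2201 normalized counts in T/T and 2221, 3658 and 2827 in WT tumors (log2 fold change -0.30, SE 0.20, 95% interval -0.76 to 0.16, limma adjusted p = 0.998). None of the 15900 genes tested, 0%, passed in limma or edgeR, 24 did in DESeq2, and 392 or 2.47% had an unadjusted limma p under 0.05, none of them a transmembrane mucin gene. The shares of all genes without overlap were 2.98% above and 2.53% below WT. Muc16 and Muc20 were listed in tumors above their levels in distal crypts, apart from Muc16 in the library labelled Mtg16-/- distal baseline replicate 2. Muc20 had 181 to 288 counts in tumors of either genotype, or 3.80 to 5.93 RPM, against at most 1.12 in crypts. Muc16 had 38.4, 51.0 and 119 counts in T/T tumors and 39.0, 101 and 172 in WT tumors. Muc3 was at its lowest in tumors, with 6760 to 26938 counts. Tumors were dissected whole, with fibroblast markers above and epithelial markers largely below those of crypts as given above. The mesothelial markers (4 of 5 listed) summed to 10.0 to 34.1 RPM in tumors and to at most 9.25 in crypts. Squamous epithelium markers (6 of 6 listed in tumors, 3 to 6 in crypts) summed to 77.7 to 1000 RPM in tumors, against 255.5 to 839 in crypts of the Mtg16-/- colony after DSS and at most 34.65 in the other crypts. Markers of ileal epithelium and Paneth cells (5 of 5 listed in tumors, 3 to 5 in crypts) summed to 561.5 to 1662 RPM in tumors and to at most 204.9 in crypts. The 27 genes of the proximal WT crypts summed to 221.4 to 311.6 RPM in tumors. The part of these in the tumor levels was not tested.

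**Figure D5:**
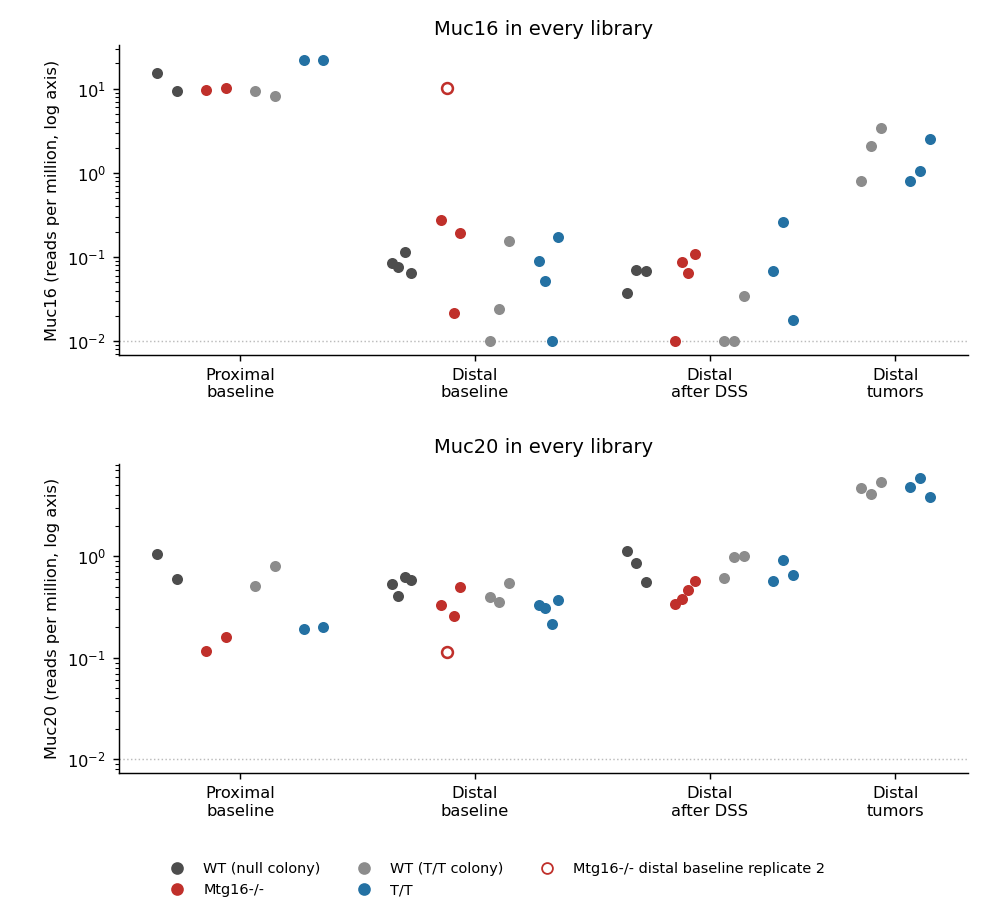
Levels of Muc16 and Muc20 in RPM (log axis) in each library by group, with libraries at 0 drawn on the dotted line at 0.01 and the open circle marking the library labelled Mtg16-/- distal baseline replicate 2. Muc16 is high in proximal crypts and in that library, and Muc20 is highest in tumors, at 3.80 to 5.93.

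Genes with a pattern like each mucin were named by Pearson's r over the 36 crypt libraries, as a description in which libraries share genotype, segment and treatment. Among 12802 genes, those closest to Muc1 were P2rx4 (0.848), Zg16 (0.838), a goblet cell lectin, and Oit1 (0.831). Closest to Muc16 were Lrat (0.987), Hoxb6 (0.984) and Hoxb7 (0.983). Closest to Muc13 were Golm1 (0.910), Birc3 (0.908) and Wdr48 (0.900), and closest to Muc3 were Igsf3 (0.876), Tfcp2l1 (0.829) and Plekhh1 (0.800). Muc4 was nearest to Muc3a (0.818), Epg5 (0.810) and Dmbt1 (0.800), and Muc20 to Scnn1b (0.757), Dlk1 (0.736) and Fstl4 (0.734). Within the family the closest pair was Muc1 and Muc20 (0.695), and Muc1 and Muc16 were the most opposed (-0.625). Without the library labelled Mtg16-/- distal baseline replicate 2, over 35 libraries, these were 0.667 and -0.593, and Muc16 with Lrat was still 0.987. Muc3a, a separate gene with no 31-base stretch in common with Muc3, was lower in distal than in proximal WT crypts (log2 fold change -1.70, limma adjusted p = 8.33e-05) and rose after DSS (1.82, limma adjusted p = 0.00702). In the segment comparison the Muc3 log2 fold change was 0.59.

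Genes around the membrane mucins were counted by lists, each beside the median log2 fold change of all genes, which was 0.00 in both comparisons below. Between the segments 20.1% of all genes tested were called higher and 22% lower in distal crypts. Of the lists, 12 of 20 mucin-type O-glycosylation enzymes were lower and 2 higher in distal crypts (median -0.33). B3gnt6, the core 3 synthase, differed by -5.92, the sialyltransferase St3gal1 by -5.75 and the branching enzyme Gcnt4 by -3.10, whereas St6galnac1, which makes sialyl-Tn, had means of 28.3 counts in distal and 2.23 in proximal crypts. St6galnac1 is 1 of the 2 enzymes counted as higher and entered the test only through the distal libraries. Of 8 goblet cell genes tested, 4 were higher, Clca1, Fcgbp, Tff3 and Zg16, and 2 lower, Agr2 and Spdef (median 0.31). Of 9 receptor partners and sheddases 3 were higher, Adam17, Egfr and Met, the receptor that MUC20 binds, and Ctnnb1 was lower (median 0.08). Of 8 brush border genes, Ezr was higher and 3 were lower, Cdhr2, Espn and Myo7b (median -0.22). Of 3 other cell-surface mucins Cd164 and Mcam were lower (median -0.67), and of 7 inflammatory regulators Il22ra1 and Stat3 were higher and Tnf lower (median -0.04). No secreted mucin of the list was tested there.

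After DSS in WT crypts, where 14% of all genes tested were called higher and 21.6% lower, 6 of 8 goblet cell genes rose and none fell (median 0.90), among them Spdef (1.60), Spink4 (1.34), Fcgbp (1.07) and Zg16 (1.05). Of the 20 O-glycosylation enzymes 9 rose and 3 fell (median -0.03), with B3gnt6 at 3.29, St3gal1 at 2.49 and C1galt1, the core 1 synthase, at -2.68. Among 9 receptor partners and sheddases the proteases Adam10 and Adam17 fell, by 2.00 and 1.47 on the log2 scale, and the protease Mmp14, which can also shed MUC1, rose by 0.73 (median -0.17). Of 8 brush border genes 5 rose, including Cdhr2, Cdhr5, Myo7b and Ush1c, and Eps8 fell (median 0.46). Stat3 and Il10rb rose among 7 inflammatory regulators (median 0.32), and Cd164 fell among 3 cell-surface mucins (median -0.34). The secreted mucin Muc6 had a mean of 0.81 counts untreated and 37.2 after DSS, and it entered the test only through the DSS libraries, so that its call is no support for the list, of which 1 gene was tested.

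Between genotypes few genes of these lists passed. Tff3, a goblet cell peptide, was higher in Mtg16-/- (log2 fold change 1.65, limma adjusted p = 0.0453) and in T/T proximal crypts (0.92, limma adjusted p = 0.038). It was 1 of 8 goblet cell genes tested, whose medians there were below 0 as given above, and Atoh1, the secretory lineage factor, had log2 fold changes of -1.01 and -0.56 that did not pass (limma adjusted p = 0.0774 and 0.215). Without the filter on low counts Tff3 passed in neither. Its call was lost for Mtg16-/- without either mutant library (limma adjusted p = 0.283 and 0.137), and for T/T without T/T replicate 2 (0.072), WT replicate 1 (0.318) or WT replicate 2 (0.6002). Atoh1 was lower in Mtg16-/- crypts after DSS (-1.16, limma adjusted p = 0.0165), a call lost without WT replicate 3 or Mtg16-/- replicate 1 or 3. No other gene of the 7 pathway lists passed in a genotype comparison in the limma test as described, and Zg16 passed in Mtg16-/- crypts after DSS once the transcript length trend was removed (-1.18, limma adjusted p = 0.0195), where 1.08% of all genes passed.

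With the replicate block in Mtg16-/- crypts after DSS, where libraries were taken as paired, 7 of 56 list genes passed, 3 higher and 4 lower, where 5.72% of all genes passed as higher and 3.06% as lower. Of the goblet cell genes Clca1 (-1.67, limma adjusted p = 0.00222), Atoh1 (-1.17, limma adjusted p = 0.000629) and Zg16 (-1.10, limma adjusted p = 0.00562) were lower and Tff3 (0.90, limma adjusted p = 0.00867) higher, with a median of -0.18 over 8. St3gal1 and the cytokine gene Il1b were higher, by 1.86 and 2.44 on the log2 scale, and Galnt7, an enzyme of O-glycan initiation, was lower (-0.52). In proximal crypts, where numbers do not pair libraries, the block gave 3 of 55 list genes for Mtg16-/- and 8 of 55 for T/T, where 0.229% and 1.1% of all genes passed. B3gnt6 was lower in both (-2.21 and -1.60). In untreated Mtg16-/- distal crypts 0 list genes passed with all libraries, and Atoh1, Tff3 and Zg16 passed without the library labelled replicate 2, where 1.06% of all genes did. With all libraries DESeq2 called 5 list genes there (1.45% of all genes), 5 in Mtg16-/- crypts after DSS (5.02%), 3 in T/T crypts after DSS (2.45%) and 2 in untreated T/T distal crypts (0.392%). In edgeR 1 was called, Atoh1 in Mtg16-/- crypts after DSS, where 0.601% of all genes were. In T/T crypts after DSS the median of the 8 goblet cell genes was -0.82 and none passed in limma.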

How the data were processed

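Crypt or tumor RNA was sequenced as paired-end poly(A) libraries. According to the submitters' processing notes reads were trimmed with fastp 0.20.0, quantified with Salmon 1.3.0 (mm10) and handled in R 3.6.3 with DESeq2 1.26.0. The values used are size-factor-normalized counts per gene (a signal, not raw counts), which the authors deposited in 9 tables, each with size factors of its own, and levels were tested within tables. Columns of fold changes and p-values from the authors' own comparisons were not used. Low values showed that whole reads could be recovered in 7 tables (tolerance 0.05). A level in RPM is the gene's share of its library's total, in which the size factor cancels.

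The 6 members and all lists were chosen with earlier results of these data known. Every member was examined in every comparison, but not every value is printed. The genes most like each member and list genes passing the test were named. The plan was at most 4 per list, which some lists exceed. Genes whose normalized counts averaged 10 or more entered limma 3.58.1 (trend, R 4.3.3), run on log2(normalized count + 1), with Benjamini-Hochberg adjustment over all genes tested and a threshold of 0.05; fold changes on this scale understate the change of low genes. Exact two-sided permutation tests over libraries stood beside it. All 6 members passed the filter in 5 tables, and Muc16 did not in 4. Differences between effects of 2 tables were divided by the root of their summed squared standard errors. The segment table and the WT DSS table reuse WT libraries of the mutant tables. Groups are the genotype, segment and treatment of the labels. Separate mice within a group are taken from the study's description, and p-values measure the spread between these libraries. Proximal and distal libraries under the label number 4149 run in consecutive pairs of 1 genotype and may share mice, which the segment test and the differences between segments do not model. Alternatives were the omission of single libraries, the replicate number as a block, a smaller pseudocount (0.1), all genes without a filter, count models for the recovered reads (edgeR 4.0.16, DESeq2 1.42.0), removal of a transcript length trend, and the label number. The scripts were tested on simulated data. For the replicate block, deviations of same-numbered libraries from their group means correlated by 0.554, 0.46 and 0.317 in the Mtg16-/- DSS table, so that it was taken as paired from the data. Promoters are from RefSeq.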

Additional observations from a re-analysis of the deposited data

Results flagged for a closer look

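Muc16 in the library labelled Mtg16-/- distal baseline replicate 2 stood far from the others of its group. It had 468 normalized counts there, and the other 3 libraries had 12.7, 0.947 and 8.99. The gap to the nearest of them was 0.975 of the range of the group (n = 4). Of 36 group tests on the 6 genes this was the 1 that stood out by this measure, which chance gives in about 1 of 20 groups. The same library held 27 of 27 genes of WT proximal crypts above 10 counts, as described for the segments.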

How the results depend on the processing

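Fold changes were followed only for members with an unadjusted p under 0.05 in the main fit, so a change of direction was unlikely beforehand. No such member changed direction in any alternative. Of their values 287 kept their side of the adjusted threshold, passing or not, 37 lost a call and 19 gained one. Counts of members that passed kept within 1.5 times in 187 alternatives and moved in 21. With the replicate number as a block, 1 member passed instead of 0 in Mtg16-/- proximal crypts (Muc1, limma adjusted p = 0.0426), 2 instead of 4 in WT crypts after DSS (Muc3 and Muc20 lost) and 5 instead of 3 between the segments (Muc1 and Muc3 gained). The block changed no other count of members, that of the paired Mtg16-/- DSS table included. In the other tables same-numbered libraries correlated by -0.766 to 0.369 in their deviations. In untreated Mtg16-/- distal crypts, where the 0.369 was found, they also carry the same label number, 5094 or 4149, which the block takes in. In the remaining tables the replicate number alone pairs them. Every library was closest to its own number in the Mtg16-/- DSS table (6 of 6), 4 of 8 were in untreated Mtg16-/- and 3 of 6 in untreated T/T distal crypts, and 0 of 6 in each remaining distal table. Without the low-count filter 0 of 2 members passed in T/T proximal crypts. In T/T crypts after DSS 1 passed instead of 0 with DESeq2 and with the transcript length trend removed (limma adjusted p = 0.0435). Without the library labelled Mtg16-/- distal baseline replicate 2 and with the label number as covariate, chosen after seeing the data, 1 passed instead of 0. Leaving out single libraries gave 0 to 1 members for Mtg16-/- and 0 to 2 for T/T proximal crypts, 0 to 1 for Mtg16-/- distal crypts, both untreated (1 with the covariate) and after DSS, 0 to 4 for WT after DSS, 2 to 4 for the segments and 0 to 1 for the T/T effect between segments. Where this left 1 library in a group, it was assumed to vary like the other group. Removing the length trend moved Muc4 after DSS in WT to 1.96. The cause was not tested.

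Counts over all genes moved more. T/T proximal crypts gave 32 genes, 2 without the filter and 151 with the block; Mtg16-/- proximal crypts gave 9 and 32 with the block. Untreated Mtg16-/- distal crypts gave 33, 200 with DESeq2, 8 with the label number, 1 with the block and 146 without the library labelled replicate 2. Untreated T/T distal crypts gave 5, 53 with DESeq2 and 0 with the block. Mtg16-/- crypts after DSS gave 91, 727 with DESeq2 and 157 without the length trend. WT after DSS gave 4833 and 2679 with the block, and the segments 5824, 3189 with the label number and 1827 within 4149. Leaving out single libraries gave 6 to 18 genes for Mtg16-/- and 0 to 140 for T/T proximal crypts, 18 to 106 for Mtg16-/- after DSS and 1 to 9073 for WT after DSS. The proximal groups of 2 libraries limit what any test can show there, and Muc16 and Muc20 rest on low counts in distal crypts.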
